A study of Mus musculus with 24 samples.

Results

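The insulin-like growth factor 1 (IGF1) axis was followed here through 8 genes: the ligand Igf1, its receptor Igf1r, and the binding proteins Igfbp2, Igfbp3, Igfbp4, Igfbp5, Igfbp6 and Igfbp7. They were taken by symbol after the Ensembl identifiers of both deposited expression tables had been matched to gene names. Of the 8 genes, 7 were found among the 15667 genes listed for uninjected hearts and the 15327 listed for injected hearts, and Igfbp2 was not analysed here. The study asked how the heart changes without Xinβ, a protein of the intercalated disc encoded by Xirp2, and what active YAP does in such hearts. Poly(A) RNA was sequenced from mouse hearts at postnatal day 7.5 in 24 libraries, 4 in each of 6 groups. WT uninjected and KO uninjected hearts received no virus. The KO is a germline deletion on a C57BL6 background in which a LacZ-Neor cassette replaces part of Xirp2, so Xinβ was missing from all tissues of these mice. The other groups received AAV9, a virus that infects heart muscle, under the skin on postnatal day 1: WT/GFP and KO/GFP hearts a virus coding for GFP, and WT/YAP and KO/YAP hearts one coding for Flag-tagged human YAP with the S127A substitution, which keeps YAP active (aYAP in the labels). Both viruses used the chicken cardiac troponin T promoter, which restricts expression to cardiomyocytes, and the GFP controls therefore carried a virus as well. KO pups and control littermates of both sexes were used. The tissue was labelled as heart apex, whereas the study's methods speak of ventricles.

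IGF1 is a secreted hormone and local growth factor that binds IGF1R, a receptor tyrosine kinase, and through PI3K, AKT and mTOR promotes growth of cells; AKT also keeps the FOXO transcription factors out of the nucleus. The IGF-binding proteins are secreted carriers that hold IGF1 and IGF2 with high affinity and lengthen their life or keep them from the receptor, and proteases that cut the carriers set the ligand free. IGFBP7 is a related protein with low affinity for IGFs. In the neonatal heart, IGF signaling promotes cardiomyocyte growth and proliferation.

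Sequences are given for the 4 members whose KO and WT libraries did not overlap in at least 1 comparison below. Each run is the 250 bases upstream of the gene's RefSeq start (GRCm38.p6), 5′ to 3′ on the strand of the gene. The window was that of Igf1r at chr7:67952007-67952256 (plus strand), of Igfbp3 at chr11:7213924-7214173 (minus strand), of Igfbp4 at chr11:99040994-99041243 (plus strand) and of Igfbp5 at chr1:72874866-72875115 (minus strand). Capitals mark matches on either strand to motifs spelled out after the sequences.
Igf1r: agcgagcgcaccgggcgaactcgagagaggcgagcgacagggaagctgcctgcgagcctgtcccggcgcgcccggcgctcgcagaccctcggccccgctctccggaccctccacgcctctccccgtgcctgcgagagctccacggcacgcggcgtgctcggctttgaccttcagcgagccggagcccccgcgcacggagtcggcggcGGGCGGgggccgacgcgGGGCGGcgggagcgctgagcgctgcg
Igfbp3: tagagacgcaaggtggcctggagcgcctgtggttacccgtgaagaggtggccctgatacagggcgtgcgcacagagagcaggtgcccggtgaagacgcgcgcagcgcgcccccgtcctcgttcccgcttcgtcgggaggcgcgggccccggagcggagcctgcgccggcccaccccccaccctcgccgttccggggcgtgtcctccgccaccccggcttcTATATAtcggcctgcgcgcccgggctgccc
Igfbp4: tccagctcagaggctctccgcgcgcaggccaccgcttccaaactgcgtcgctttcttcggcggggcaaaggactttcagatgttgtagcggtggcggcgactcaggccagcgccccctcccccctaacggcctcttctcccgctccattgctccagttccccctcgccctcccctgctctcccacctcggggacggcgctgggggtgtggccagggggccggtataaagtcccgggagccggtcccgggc
Igfbp5: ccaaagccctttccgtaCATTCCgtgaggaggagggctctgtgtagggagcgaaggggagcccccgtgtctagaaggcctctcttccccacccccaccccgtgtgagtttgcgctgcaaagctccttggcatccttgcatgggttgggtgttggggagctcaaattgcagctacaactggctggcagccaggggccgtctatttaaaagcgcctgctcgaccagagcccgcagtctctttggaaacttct

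The motifs searched, on both strands, were GGAATG (bound by the TEAD partners of YAP), GTAAACA (FOXO), GAACA followed after any 3 bases by TGTTC (glucocorticoid receptor), TATATA (a form of the TATA box), GGGCGG (GC box) and CACGTG (E-box). No match overlapped another in the sequences shown. The Igfbp5 window held 1 TEAD match, which began at position -233 from the start, and 12.6% of all 32851 mouse windows of this length held that motif. The Igfbp3 window held 1 TATATA match beginning at position -30, a motif found in 5.25% of all windows. Igf1r held 2 GC boxes (32.7% of all windows), and the Igfbp4 window held none of the 6 motifs. It does hold the letters tataaa near its end, another TATA form that was not searched. The FOXO, glucocorticoid receptor and E-box letters, found in 3.17%, 0.0396% and 6.02% of all windows, occurred in none of the 4 windows shown. These matches describe letters in short windows only.

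The 7 analysed members are protein-coding genes spread over 6 chromosomes (GENCODE M21, GRCm38). Igf1 spans chr10:87858265-87937042, Igf1r chr7:67952827-68233668, Igfbp3 chr11:7206086-7213923, Igfbp4 chr11:99041244-99054392, Igfbp5 chr1:72857932-72874884, Igfbp6 chr15:102144362-102149511 and Igfbp7 chr5:77349240-77408041. Igfbp5 lies 5457 bases from Igfbp2, on the opposite strand and with no coding gene between them. Igf1 overlaps the antisense gene Igf1os, and Igfbp7 overlaps Polr2b and Gm34648. The libraries were made with a strand-specific kit, but whether counting used strand is not given in the sources used here, so reads of these 2 members may include some from the overlapping genes.

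Read counts recovered on listed genes, which derive from StringTie assemblies, ranged from 20490875 to 31154155 in the 8 uninjected libraries. They ranged from 15015038 to 19444404 in the 16 injected ones. Xirp2 ranged from 56.0 to 168.4 normalized CPM (read counts scaled to library size) in the 12 WT libraries and from 0 to 0.972 in the 12 KO libraries, so each library matched its genotype label. All 8 cardiomyocyte markers examined (Myh6, Myh7, Tnnt2, Tnni3, Actc1, Pln, Ryr2 and Myl2) were above 0 in every group. Uninjected and injected hearts were sequenced and normalized as separate tables, the former single-end and the latter paired-end, so levels set side by side across them are descriptive.

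Among the members, Igfbp7 had the highest level per kilobase of exon in all 6 groups and Igfbp6 the lowest. In WT uninjected hearts, Igfbp7 stood at 163.8 ± 15.6 CPM per kilobase (SD, n = 4), followed by Igfbp4 at 34.1 ± 2.12 and Igfbp5 at 29.1 ± 1.91. Igfbp3 at 5.89 ± 0.657, Igf1r at 4.23 ± 0.152 and Igf1 at 4.07 ± 0.409 lay lower, and Igfbp6 lowest at 1.07 ± 0.304. Igf1r and Igf1 were the only neighbors in this order whose libraries overlapped. In KO uninjected hearts the order differed: Igfbp5 (57.4 ± 10.3 CPM per kilobase) came above Igfbp4 (19.9 ± 5.93) with no overlap, and Igfbp3 (19.0 ± 7.52) overlapped Igfbp4. In KO/GFP hearts Igfbp5, Igfbp3 and Igfbp4 overlapped each other in turn, at 41.6 ± 11.4, 32.7 ± 24.5 and 28.7 ± 4.06 CPM per kilobase. In KO/YAP hearts the order of the binding proteins was that of WT uninjected hearts, Igfbp7, Igfbp4, Igfbp5 and Igfbp3, with no overlap between neighbors.

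**Figure D1:**
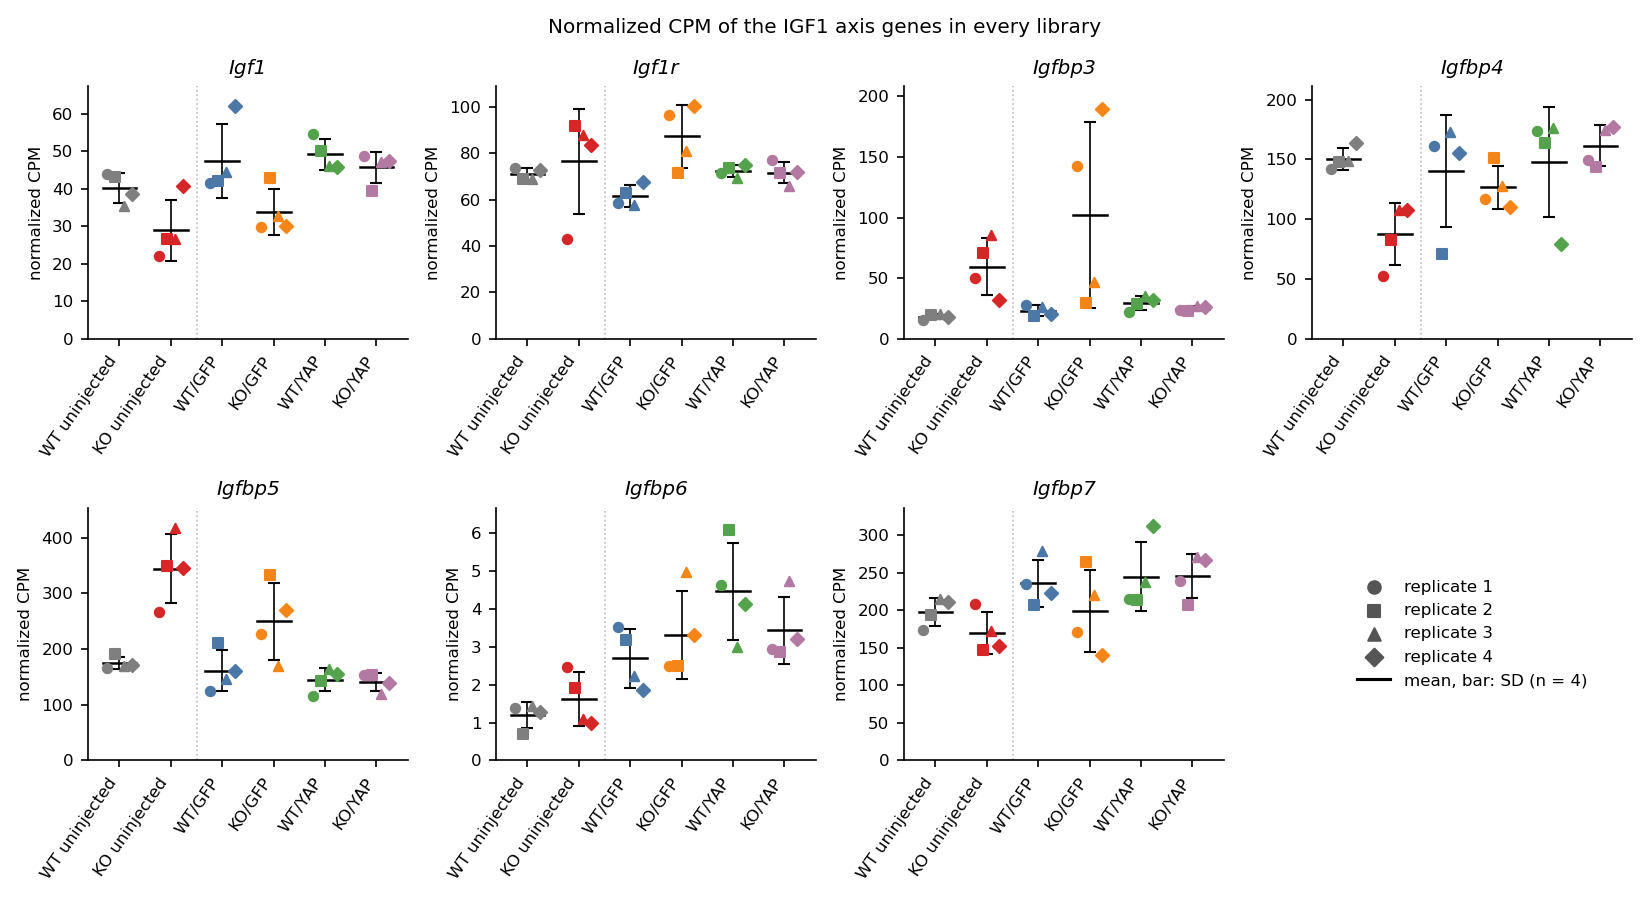
Normalized CPM (y axis, from 0) of each analysed member in the 24 libraries, by group (x axis); marker shapes give the replicate, horizontal lines the mean and bars the SD (n = 4). Igfbp3 in the 4 KO/GFP libraries runs from 29.6 to 189.8 CPM, whereas the 4 KO/YAP libraries sit between 23.1 and 26.9.

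Igf1, the ligand, had a lower mean in KO than in WT hearts where no YAP was given, and the difference passed the threshold in injected hearts. Its level in the WT uninjected libraries was 44.0, 43.1, 35.3 and 38.6 CPM (replicates 1 to 4), and in the KO uninjected libraries 22.01, 26.6, 26.5 and 40.8 CPM. The first 3 KO libraries lay below all WT libraries and replicate 4 lay among them. The log2 fold change of -0.49 ± 0.18 (SE; 95% confidence interval -0.89 to -0.09) did not pass the threshold (adjusted p = 0.139, limma), but did without KO uninjected replicate 4 (-0.66, adjusted p = 0.0101) or with the level of Ddx3y, a Y-linked gene, as a covariate (0.034). In injected hearts, the WT/GFP libraries had 41.6, 42.0, 44.4 and 62.2 CPM of Igf1 and the KO/GFP libraries 29.8, 43.0, 32.8 and 30.02 CPM. Again 3 of 4 KO libraries lay below all WT libraries, and KO/GFP replicate 2 overlapped them. Igf1 fell by 0.47 on the log2 scale (SE 0.14, adjusted p = 0.0298), and the call was lost without WT/GFP replicate 4 (adjusted p = 0.0924) or without KO/GFP replicate 1, 3 or 4 (0.0969, 0.0522 and 0.0911). It was also lost in a fit of only the 2 groups compared (0.115) and with the replicate number as a block (0.0586).

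With active YAP, Igf1 stood at 48.8, 39.5, 47.2 and 47.4 CPM in KO/YAP libraries and at 54.6, 50.2, 46.1 and 45.9 CPM in WT/YAP libraries. Of the KO/YAP libraries, 3 lay above all KO/GFP libraries, and replicate 2 lay below KO/GFP replicate 2. Igf1 rose in KO/YAP against KO/GFP hearts by 0.43 ± 0.14 (log2, SE; adjusted p = 0.0430, limma). This call lay close to the threshold: 10 of 16 fits that each left out 1 library lost it (adjusted p from 0.0504 to 0.118), those without KO/GFP replicate 1, 3 or 4, KO/YAP replicate 1, 3 or 4, WT/GFP replicate 3 or WT/YAP replicate 2, 3 or 4. It was also lost in 6 other alternatives (adjusted p from 0.0536 to 0.0771). KO/YAP and WT/GFP hearts differed in Igf1 by -0.04 on the log2 scale, with a 95% interval of -0.33 to 0.25.

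Igf1r, the receptor, was higher in KO/GFP than in WT/GFP hearts. It measured 58.4, 62.7, 57.5 and 67.5 CPM in WT/GFP libraries and 96.6, 71.4, 81.0 and 100.4 CPM in KO/GFP libraries. The groups did not overlap, and Igf1r rose by 0.49 ± 0.10 (log2, SE; 1.40-fold; adjusted p = 0.00398, limma). All 16 fits leaving out 1 library kept this call. In KO/YAP hearts Igf1r was at 76.9, 71.5, 66.1 and 72.0 CPM, and in WT/YAP hearts at 71.7, 73.5, 69.3 and 74.9 CPM. The KO/YAP libraries overlapped KO/GFP replicate 2 alone, and their difference from KO/GFP (-0.27 ± 0.10) did not pass the threshold (adjusted p = 0.0776), but did without that replicate (-0.36, adjusted p = 0.0105) or with quantile normalization (0.0490).

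In WT hearts the 4 WT/YAP libraries all lay above the 4 WT/GFP libraries in Igf1r, by 0.23 ± 0.10 on the log2 scale, which did not pass the threshold (adjusted p = 0.703). The difference between the effect of the YAP virus in KO hearts and that in WT hearts was -0.50 ± 0.14 (log2, SE; adjusted p = 0.0402). Of 16 fits leaving out 1 library, 13 lost this call, with adjusted p up to 0.0826; it was kept only without WT/GFP replicate 4, KO/GFP replicate 2 or KO/GFP replicate 3. It was also lost without the mean-variance trend (0.0571), with the Ddx3y covariate (0.0557) and without WT/GFP replicate 2 and WT/YAP replicate 4 together (0.117). In uninjected hearts the level of Igf1r was 73.7, 69.0, 68.9 and 72.9 CPM in WT libraries and 43.0, 91.6, 87.9 and 83.8 CPM in KO libraries. KO replicate 1 lay below all WT libraries and the other KO libraries above them, and the log2 difference was 0.05 ± 0.22 (adjusted p = 0.923). Without KO replicate 1 it was 0.30 (adjusted p = 0.0253).

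Igfbp3, the main carrier of IGF1 in the blood, showed the largest change of the analysed members in both KO comparisons made without YAP. It was at 15.8, 19.7, 20.4 and 17.8 CPM in WT uninjected libraries and at 50.0, 70.7, 85.5 and 31.7 CPM in KO uninjected libraries. All KO libraries lay above all WT libraries, and replicate 4, the one whose Igf1 lay among the WT libraries, had the lowest Igfbp3 of the KO group. Igfbp3 rose by 1.55 ± 0.27 (log2, SE; 2.93-fold; adjusted p = 0.0120, limma), and the call was lost without WT uninjected replicate 1 (1.49, adjusted p = 0.0525). In injected hearts, WT/GFP libraries had 28.0, 18.5, 26.0 and 20.7 CPM and KO/GFP libraries 142.3, 29.6, 47.2 and 189.8 CPM. The groups did not overlap, but the KO/GFP libraries themselves spread widely, with replicates 1 and 4 far above replicates 2 and 3. Igfbp3 rose by 1.73 ± 0.40 (log2, SE; 3.32-fold; adjusted p = 0.00965), a call kept in all 16 fits leaving out 1 library, with values from 1.31 to 2.19.

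In KO/YAP hearts Igfbp3 measured 23.5, 23.1, 26.9 and 26.0 CPM, below all KO/GFP libraries and within the range of the WT/GFP libraries. It fell by 1.63 on the log2 scale against KO/GFP (SE 0.40; adjusted p = 0.0127, limma), also without any 1 library (adjusted p up to 0.0484). The spread between the KO/YAP libraries was 1.83 CPM (SD), against 76.5 CPM in KO/GFP hearts. WT/YAP libraries had 21.9, 28.9, 35.1 and 32.3 CPM and overlapped WT/GFP libraries, with a log2 difference of 0.33 (95% interval -0.53 to 1.18). The fit shares 1 spread among the injected groups, so the SE of 0.40 applies to each of their pairwise comparisons of Igfbp3. This interval thus also carries the wide spread of the KO/GFP libraries. The effect of the YAP virus in KO hearts less that in WT hearts was -1.95 ± 0.57 (log2, SE; adjusted p = 0.0478). This call, too, was lost in 13 of 16 fits leaving out 1 library, with adjusted p up to 0.0950; the fits without KO/GFP replicate 2 or 3 or WT/YAP replicate 1 kept it. It was also lost without the mean-variance trend (0.0576), with the Ddx3y covariate (0.0669), with the replicate block (0.0565) and without WT/GFP replicate 2 and WT/YAP replicate 4 together (0.155), a pair chosen after their values were seen. With only the 2 groups compared in the fit, neither injected call of Igfbp3 held (adjusted p = 0.0707 for KO/GFP against WT/GFP and 0.0672 for KO/YAP against KO/GFP).

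Igfbp5, a binding protein that adheres to extracellular matrix and is expressed in muscle, rose and fell in the same 3 comparisons as Igfbp3. WT uninjected libraries had 165.9, 191.7, 170.0 and 172.3 CPM and KO uninjected libraries 266.5, 349.3, 417.8 and 345.6 CPM. The lowest KO library lay above the highest WT library. Igfbp5 rose by 0.96 ± 0.14 (log2, SE; 1.94-fold; adjusted p = 0.00555, limma), a call kept in all 8 fits leaving out 1 library. The WT/GFP libraries had 125.2, 211.5, 147.0 and 161.3 CPM and the KO/GFP libraries 227.5, 332.7, 169.8 and 269.7 CPM. Here the groups overlapped, since KO/GFP replicate 3 lay below WT/GFP replicate 2. The rise of 0.61 ± 0.19 (adjusted p = 0.0366) was lost in 6 of 16 fits leaving out 1 library, those without WT/GFP replicate 1, 3 or 4 or KO/GFP replicate 1, 2 or 4, with adjusted p from 0.0653 to 0.114. It was also lost with quantile normalization (0.0645) and in a fit of only the 2 groups (0.117).

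KO/YAP libraries had 153.7, 152.8, 118.7 and 139.4 CPM of Igfbp5, all below all KO/GFP libraries. It fell by 0.79 on the log2 scale (SE 0.19; adjusted p = 0.00938, limma) and remained called in all 16 fits leaving out 1 library. WT/YAP libraries, at 116.5, 143.0, 163.7 and 156.1 CPM, overlapped WT/GFP libraries, with a log2 difference of -0.14 (95% interval -0.53 to 0.25). The difference between the effects of the YAP virus in KO and WT hearts, -0.65 ± 0.26, did not pass the threshold (adjusted p = 0.143), but did without KO/GFP replicate 3 (-0.82, adjusted p = 0.0408). The rank of the KO/GFP hearts differed from that for Igfbp3: replicate 2, lowest in Igfbp3, was highest in Igfbp5.

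Igfbp4, a carrier cleaved by the protease PAPP-A, separated KO from WT libraries in uninjected hearts without passing the threshold. WT uninjected libraries had 141.9, 148.0, 148.4 and 163.9 CPM and KO uninjected libraries 52.7, 82.6, 107.5 and 108.0 CPM. The groups did not overlap, yet the log2 difference of -0.83 ± 0.21 (0.564-fold) lay just past the threshold (adjusted p = 0.0504, limma). It passed without KO uninjected replicate 1 (-0.60, adjusted p = 0.0146) or replicate 4 (-0.94, 0.0253), and with quantile normalization (0.0279), median-ratio scaling (0.0499) or DESeq2 on the recovered reads (0.00768). KO/GFP libraries had 117.1, 151.4, 127.6 and 110.5 CPM and WT/GFP libraries 161.3, 70.8, 173.3 and 155.3 CPM. All WT/GFP libraries except replicate 2 lay above all KO/GFP libraries, and the log2 difference was -0.07 (95% interval -0.63 to 0.48; adjusted p = 0.892). WT/YAP libraries had 173.5, 163.4, 176.1 and 79.1 CPM, with replicate 4 as low as WT/GFP replicate 2, and KO/YAP libraries 149.9, 143.4, 174.8 and 177.1 CPM. With both low WT libraries left out, a choice made after their values were seen, KO/GFP against WT/GFP was -0.37 (adjusted p = 0.0512), and KO/YAP against KO/GFP passed the threshold at 0.35 (adjusted p = 0.0368).

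Igfbp7, the most abundant member per kilobase of exon, passed the threshold in none of the 7 comparisons. WT uninjected libraries had 173.4, 193.5, 214.7 and 210.7 CPM and KO uninjected libraries 208.4, 147.4, 172.6 and 151.9 CPM. In injected hearts WT/GFP libraries held 234.6, 207.4, 279.6 and 222.7 CPM of Igfbp7, KO/GFP libraries 171.3, 264.8, 221.1 and 140.6 CPM, WT/YAP libraries 215.5, 214.2, 237.4 and 312.5 CPM, and KO/YAP libraries 239.6, 207.6, 271.2 and 266.6 CPM. The 2 groups overlapped in every pairwise comparison made, and adjusted p was 0.201 or more in all 7 comparisons (limma). However, KO/YAP against KO/GFP passed without KO/GFP replicate 2 (0.49, adjusted p = 0.0479). Igfbp6, which prefers IGF2, was measured by 20 to 101 reads per library. It ranged from 0.694 to 2.48 CPM in uninjected hearts and from 1.86 to 6.09 CPM in injected hearts, and no comparison passed the threshold (adjusted p 0.350 or more). KO/GFP against WT/GFP gave 0.21 with a 95% interval of -0.26 to 0.67 on the log2 scale.

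Set side by side, the comparisons called different numbers of members, and those in injected hearts share groups of libraries. In uninjected KO against WT hearts, 2 of 7 members passed an adjusted p of 0.05 (Igfbp3 and Igfbp5, both higher), where 6.69% of the 15598 genes tested passed, 3.23% in the higher direction. The median log2 change was 0.05 over the members and 0.0011 over all genes. In KO/GFP against WT/GFP hearts, 4 of 7 passed (Igf1r, Igfbp3 and Igfbp5 higher, Igf1 lower), against 13.7% of 14597 genes, 6.43% higher and 7.22% lower. In KO/YAP against KO/GFP hearts, 3 of 7 passed (Igf1 higher, Igfbp3 and Igfbp5 lower), against 14.8% of genes, 7.85% higher and 6.92% lower. These 2 comparisons use the same KO/GFP libraries, so opposite signs in them are in part fixed by that sharing.

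No member passed in KO/YAP against WT/GFP hearts, where 3 of 14597 genes did (0.0206%), nor in WT/YAP against WT/GFP hearts, where 0 genes did (0%), nor in KO/YAP against WT/YAP hearts, where 6 genes did (0.0411%). At an unadjusted p of 0.05, Igf1r passed in the first (0.217) and the second (0.232), and Igfbp6 in the second (0.557, all log2), where 6.08% and 6.93% of all genes did. No member passed at that level between KO/YAP and WT/YAP hearts, where 11.1% of genes did. edgeR and DESeq2 on the recovered reads also called 0 members in these 3 comparisons. The interaction of genotype and vector called 2 of 7 members (Igf1r and Igfbp3, both negative), against 7.56% of genes, 3.77% negative. KO and WT libraries did not overlap for Igfbp3, Igfbp4 and Igfbp5 in uninjected hearts, 3 of 7 members, where this held for 16.4% of genes, and for Igf1r and Igfbp3 between KO/GFP and WT/GFP hearts, 2 of 7, where it held for 15.3%. Between KO/YAP and KO/GFP hearts it held for Igfbp3 and Igfbp5 (17.5% of genes) and between WT/YAP and WT/GFP hearts for Igf1r (4.32%). For KO/YAP hearts it held for 0 members against WT/GFP (4.45%) and 0 against WT/YAP hearts (9.23%).

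**Figure D2:**
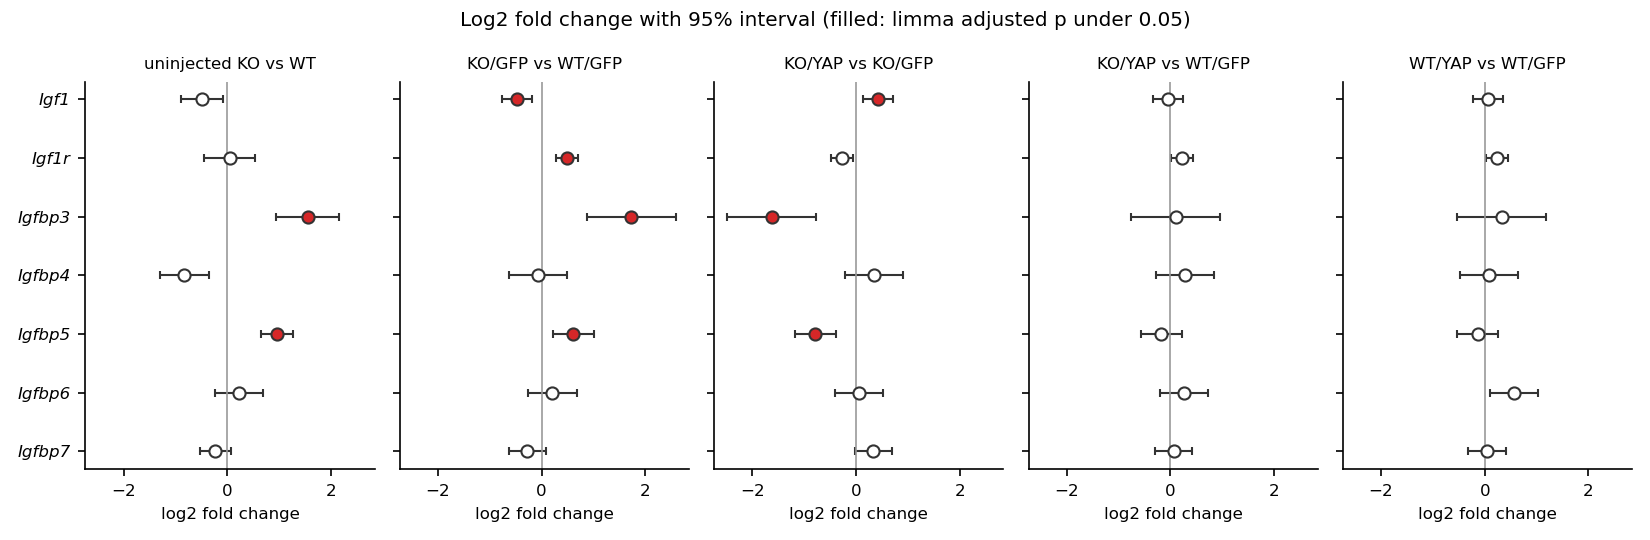
Log2 fold change (x axis) of each analysed member (y axis) in 5 comparisons, with its 95% confidence interval; filled points passed an adjusted p of 0.05 (limma). Igfbp3 lies at 1.55 and 1.73 in the KO comparisons without YAP, at -1.63 between KO/YAP and KO/GFP, and at 0.11 between KO/YAP and WT/GFP.

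The KO hearts of a group also differed among themselves, and in KO/GFP hearts several members followed the same libraries. Among KO/GFP hearts, replicates 1 and 4 had the highest Igfbp3 (142.3 and 189.8 CPM) and Igf1r (96.6 and 100.4 CPM), and the lowest Igf1 (29.8 and 30.02 CPM), Igfbp4 (117.1 and 110.5 CPM) and Igfbp7 (171.3 and 140.6 CPM). Replicate 2 had the lowest Igfbp3 and Igf1r and the highest Igf1, Igfbp4 and Igfbp7 of that group. Among KO uninjected hearts, replicate 4 combined the lowest Igfbp3 (31.7 CPM) with the highest Igf1 (40.8 CPM). Igf1r and Igfbp7 did not repeat the KO/GFP order there: replicate 1 had the lowest Igf1 (22.01 CPM), the lowest Igf1r (43.0 CPM) and the highest Igfbp7 (208.4 CPM). Across the 16 injected libraries, Igfbp3 and Igf1 correlated at r = -0.80 on the log2 scale, and at -0.59 after group means were removed. Across the 8 uninjected libraries r was -0.84. Igf1r and Igfbp3 correlated at 0.83 in injected but 0.16 in uninjected libraries, and Igf1 and Igfbp7 at 0.57 but 0.00043. These correlations are descriptions over libraries that share groups and normalization.

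**Figure D3:**
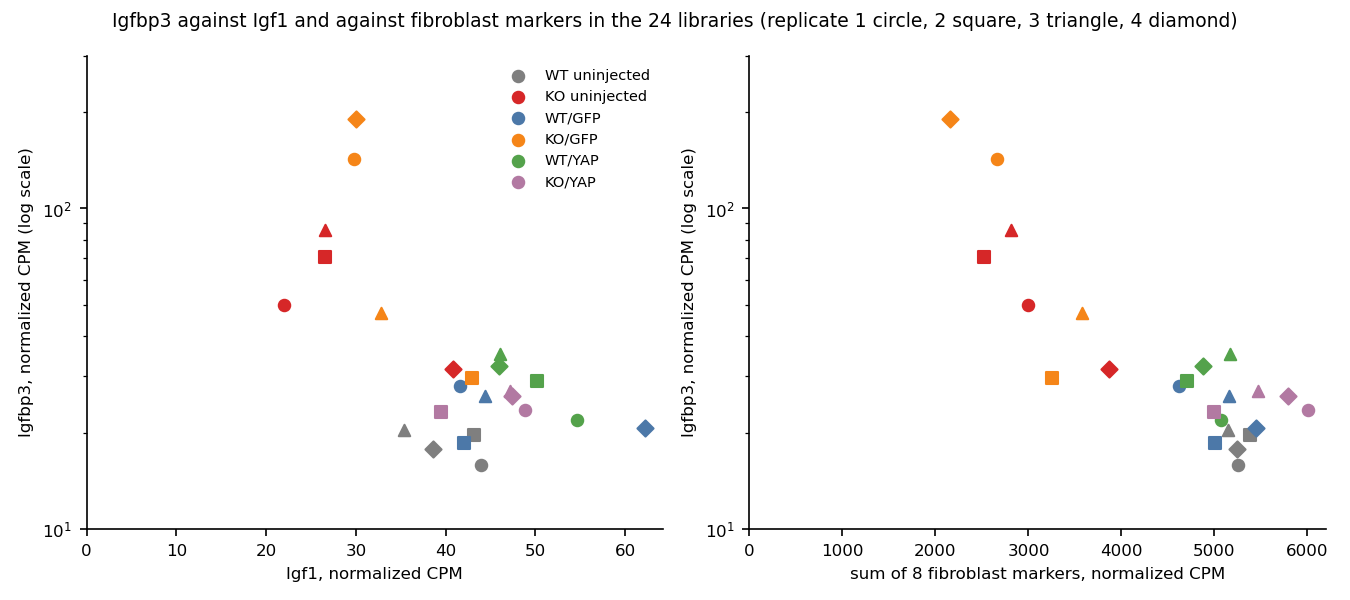
Igfbp3 (y axis, normalized CPM, log scale) against Igf1 (left, normalized CPM) and against the sum of 8 fibroblast markers (right, normalized CPM) in the 24 libraries, colored by group. The 4 KO/YAP libraries sit with the 12 WT libraries, all of which lie at 4615 or above in the marker sum, and KO/GFP replicate 4 combines 189.8 CPM of Igfbp3 with a marker sum of 2156.

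Markers of several other cell types differed between the same groups as these members. In the 3 comparisons described here, uninjected KO against WT, KO/GFP against WT/GFP and KO/YAP against KO/GFP, 6.69%, 13.7% and 14.8% of all genes were called. Of 8 fibroblast markers (Col1a1, Col1a2, Col3a1, Pdgfra, Dcn, Lum, Tcf21 and Postn), 4 were lower in KO uninjected than in WT uninjected hearts. In KO/GFP hearts 6 were lower than in WT/GFP hearts, and 6 were higher in KO/YAP than in KO/GFP hearts. None was called in the opposite direction. Pdgfra and Tcf21 were called in none of the 3 comparisons. Their log2 changes were -0.23 and -0.11 in KO uninjected hearts, -0.03 and -0.05 in KO/GFP hearts, and 0.24 and 0.24 in KO/YAP against KO/GFP hearts. The summed level of the 8 fibroblast markers was 5146 to 5380 CPM in WT uninjected, 2525 to 3869 in KO uninjected and 4615 to 5447 in WT/GFP libraries. It was 2156 to 3580 in KO/GFP, 4701 to 5171 in WT/YAP and 4990 to 6002 in KO/YAP libraries. KO/GFP replicates 1 and 4, highest in Igfbp3, had the lowest sums of their group (2657 and 2156 CPM), and KO uninjected replicate 4, lowest in Igfbp3, the highest of its group (3869 CPM). Of 8 macrophage markers, 6 were lower in each KO comparison without YAP and 6 higher in KO/YAP than in KO/GFP hearts, with sums of 102.5 to 123.0, 52.0 to 96.8, 119.5 to 192.6, 53.7 to 106.4, 109.0 to 121.5 and 112.9 to 155.3 CPM in the same order of groups. Within the KO groups the macrophage sums did not follow the fibroblast sums. KO/GFP replicates 1 and 4 had the highest (87.5 and 106.4 CPM, against 58.8 and 53.7 CPM), and KO uninjected replicate 4 the lowest (52.0 CPM).

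Endothelial marker sums separated the same groups without overlap, at 1615 to 1796 CPM in WT uninjected, 1206 to 1512 in KO uninjected, 1540 to 1697 in WT/GFP, 1325 to 1457 in KO/GFP and 1546 to 1634 in KO/YAP libraries. Of its 8 markers, 1 and 3 were lower in the KO comparisons, and 2 were higher and 1 lower in KO/YAP than in KO/GFP hearts. Epicardial sums did so too, at 58.7 to 65.0, 35.0 to 47.9, 74.7 to 89.9, 28.5 to 66.3 and 71.3 to 79.3 CPM in the same groups. KO/GFP replicates 1 and 4 had the lowest epicardial sums of their group (44.9 and 28.5 CPM). Of the epicardial markers tested, 1 was lower in each KO comparison, and 1 was higher and 1 lower in KO/YAP than in KO/GFP hearts.

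All 5 erythroid markers were lower in KO/GFP than in WT/GFP hearts (median log2 change -1.18). In uninjected KO against WT hearts (-0.35) and KO/YAP against KO/GFP hearts (0.04) 0 of 5 were called. The same held in KO/YAP against WT/GFP hearts, where 0.0206% of all genes were called. The median there, -1.12, was close to that of KO/GFP against WT/GFP. WT/GFP replicate 4, the library with the highest Igf1, stood apart with an erythroid sum of 8408 CPM against 3384 to 3524 CPM in the other WT/GFP libraries. Of 8 smooth muscle and pericyte markers, 1 was lower in each KO comparison and 3 were higher in KO/YAP than in KO/GFP hearts. In these comparisons lymphatic endothelial markers gave 1 call (higher in KO/GFP hearts). Atrial cardiomyocyte and Schwann cell markers gave 1 call each (lower in KO/YAP than in KO/GFP hearts). Those tested in injected hearts numbered 5, 3 and 2. Outside these comparisons, the atrial marker Myl4 was also called in KO/YAP against WT/YAP hearts (-1.01, adjusted p = 0.0182, limma). Nppa and Myl4 were called in the interaction. Of 8 cardiomyocyte markers, 2 and 3 were higher in the KO comparisons (Tnnt2 and Pln in both) and 3 lower in KO/YAP than in KO/GFP hearts. No listed marker was at 0 in a whole group; 3 of 8 epicardial and 1 of 5 Schwann cell markers were listed in uninjected hearts, and 7 of 8 and 3 of 5 in injected hearts. Fibroblasts and macrophages are known sources of Igf1. In undissociated heart tissue, fewer cells of a type and less RNA per cell cannot be told apart. The part of cell composition in the members' changes was not tested.

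For each member, the genes whose log2 level followed it most closely over the 16 injected libraries are named as a description. For Igfbp3 these were Fmo2 (r = 0.970), Ifitm1 (0.961) and Adam23 (0.948), and over the 8 uninjected libraries the same genes gave 0.950, 0.937 and 0.828. For Igfbp5 they were Foxc1 (0.897), Naa80 (0.896) and Sall1 (0.888), with 0.834, 0.942 and 0.919 in uninjected libraries. Both binding proteins thus had close followers in each table. For Igf1 they were Inka2 (0.904), Itgb6 (0.887) and Leo1 (0.887), with lower values of 0.617, 0.72 and 0.586 in uninjected libraries. For Igf1r, Ino80d (0.924) also followed in uninjected libraries (0.909), whereas Gm47547 (0.923) and Zim1 (0.922) did not (-0.08 and 0.10). Igfbp7 was followed by Gm20659 (0.915), Sparc (0.898) and Chrnb1 (0.898), with 0.58 for Sparc and 0.52 for Chrnb1 in uninjected libraries, where Gm20659 gave no value. Igfbp4 was followed by Rcbtb2 (0.848), Hectd2os (0.791) and Rnf8 (0.750), with 0.44, 0.09 and -0.28 in uninjected libraries. Igfbp6 was followed by Trex1 (0.823), Sncaip (0.727) and Lgals8 (0.722), with 0.22, -0.69 and -0.81. The likenesses of Igfbp4 and Igfbp6 thus did not hold in the other table.

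The other ligands, receptors and carriers gave no calls. Of 10 genes fixed for this list, 6 were listed and tested, and 0 passed in any comparison, where 6.69%, 13.7% and 14.8% of all genes passed in uninjected KO against WT, KO/GFP against WT/GFP and KO/YAP against KO/GFP hearts. With 6 genes, 0 calls is near these shares. Igf2r, the receptor that clears IGF2, missed the threshold in KO/GFP against WT/GFP hearts (0.56 ± 0.18, adjusted p = 0.05004, limma); its 4 KO/GFP libraries were at 555.2, 288.2, 400.2 and 631.6 CPM against 269.7, 316.1, 300.4 and 332.1 CPM in WT/GFP. As for Igfbp3, replicates 1 and 4 were the highest. Igf2, the fetal ligand, varied within groups more than between them, from 54.5 to 599.3 CPM among the 4 WT/GFP libraries, with a log2 difference of -0.03 ± 0.73 for KO/GFP against WT/GFP. Insr, the insulin receptor, measured 22.1 CPM in WT/GFP replicate 1 and 131.1 to 159.0 CPM in the other WT/GFP libraries, and its difference of 0.79 ± 0.46 did not pass (adjusted p = 0.284).

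Among proteases that cut binding proteins and the inhibitors of those proteases, 1 gene rose and 1 fell in each KO comparison without YAP, of 9 tested in uninjected and 8 in injected hearts, where 6.69% and 13.7% of all genes were called in either direction. Htra1, a secreted serine protease, fell by 0.68 in uninjected KO hearts (adjusted p = 0.0227, limma) and by 0.82 in KO/GFP hearts (adjusted p = 2.71e-04), and was higher by 0.84 in KO/YAP than in KO/GFP hearts (adjusted p = 2.02e-04). Stc2, a stanniocalcin that inhibits PAPP-A, rose by 0.71 in uninjected KO hearts (adjusted p = 0.0458) and by 0.80 in KO/GFP hearts (adjusted p = 0.00828), and was lower in KO/YAP than in KO/GFP hearts (-0.93, adjusted p = 0.00320). In these 3 comparisons neither gene's groups overlapped, which held for 16.4%, 15.3% and 17.5% of all genes. Of the growth hormone arm, which drives Igf1 transcription in liver, 7 of 8 genes were tested and 1 was called in 1 comparison: the kinase gene Jak2 rose by 0.51 in KO/GFP hearts (adjusted p = 0.0381).

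All 30 genes of receptor signaling were tested, and 2 were higher in uninjected KO hearts, 5 were higher in KO/GFP hearts, and 5 were lower and 2 higher in KO/YAP than in KO/GFP hearts. Of all genes, 3.23% and 6.43% were called higher in the KO comparisons, and 6.92% lower and 7.85% higher in KO/YAP against KO/GFP hearts. Pik3r1, the regulatory subunit of PI3K, rose by 1.27 in uninjected KO hearts (adjusted p = 0.0391, limma) and by 1.16 in KO/GFP hearts (4.91e-04), and fell by 1.11 with YAP (6.58e-04). The transcription factor gene Foxo3 rose by 0.77 (adjusted p = 0.0365) and by 1.01 (0.00377) and fell by 0.83 with YAP (0.0118). These are the genes of the list called in all 3 comparisons. Irs1, the adapter that links the receptor to PI3K, rose by 0.77 in KO/GFP hearts (adjusted p = 0.00438) and fell by 0.69 with YAP (0.00833). Its difference of 0.38 in uninjected hearts did not pass (0.232). Irs2, which is also among the FOXO-induced genes, had the opposite sign to Irs1 without passing, at -0.78 in uninjected KO hearts and 1.61 with YAP. Foxo4 rose by 0.60 in KO/GFP hearts (adjusted p = 0.0224), and Rictor, of mTOR complex 2, fell by 0.40 with YAP (0.0143). The median over the list was 0.0038, 0.05 and 0.04 (log2) in the 3 comparisons, beside 0.0011, -0.0092 and 0.010 over all genes.

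Among genes that FOXO factors are known to induce, those called went in a single direction in each comparison. Of 20 genes fixed, 18 were tested: 4 were higher and none lower in uninjected KO hearts, 8 higher and none lower in KO/GFP hearts, and 8 lower and none higher in KO/YAP than in KO/GFP hearts. Of all genes, 3.23%, 6.43% and 6.92% were called in those directions. The median log2 change of the list was 0.26, 0.59 and -0.43. Single genes, called or not, ran from -0.78 to 2.06, from -0.13 to 2.06 and from -1.47 to 1.61. Klf15, a transcription factor of muscle metabolism, rose by 1.87 (adjusted p = 0.00254, limma) and 2.06 (4.25e-04) and fell by 1.47 with YAP (0.00403). Pnpla2, the triglyceride lipase ATGL, rose by 0.85 (adjusted p = 0.00808) and 0.90 (0.00124) and fell by 0.86 (0.00148). Ddit4, an inhibitor of mTOR complex 1, rose by 2.06 in uninjected KO hearts (0.0132), and Cited2 by 1.14 (0.00789). In KO/GFP hearts Txnip (1.10, adjusted p = 0.00307) and Sesn1 (0.94, 0.00763) were also higher, and Eif4ebp1, which restrains translation, fell by 0.54 with YAP (adjusted p = 0.00275). These genes answer to other signals as well, glucocorticoids among them.

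Of the 3 IGF2BP genes, whose RNA-binding products are named for Igf2 mRNA and do not bind IGFs, Igf2bp2 rose by 0.73 in uninjected KO hearts (adjusted p = 0.0320, limma) and by 1.09 in KO/GFP hearts (4.12e-04), and fell by 1.10 with YAP (3.45e-04). Igf2bp3 fell by 0.58 with YAP (0.00528). In the interaction of genotype and vector, 7.56% of all genes were called. All 3 IGF2BP genes were called and negative there (Igf2bp1 -0.94, Igf2bp2 -1.12 and Igf2bp3 -0.77), as were 3 receptor signaling genes (Irs1, Pik3r1 and Rictor) and 3 FOXO-induced genes (Eif4ebp1, Klf15 and Pnpla2), and Htra1 was called and positive (0.97). In KO/YAP against WT/GFP, WT/YAP against WT/GFP and KO/YAP against WT/YAP hearts, none of the genes of these 6 wider lists passed the threshold, where 0.0206%, 0% and 0.0411% of all genes did.

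**Figure D4:**
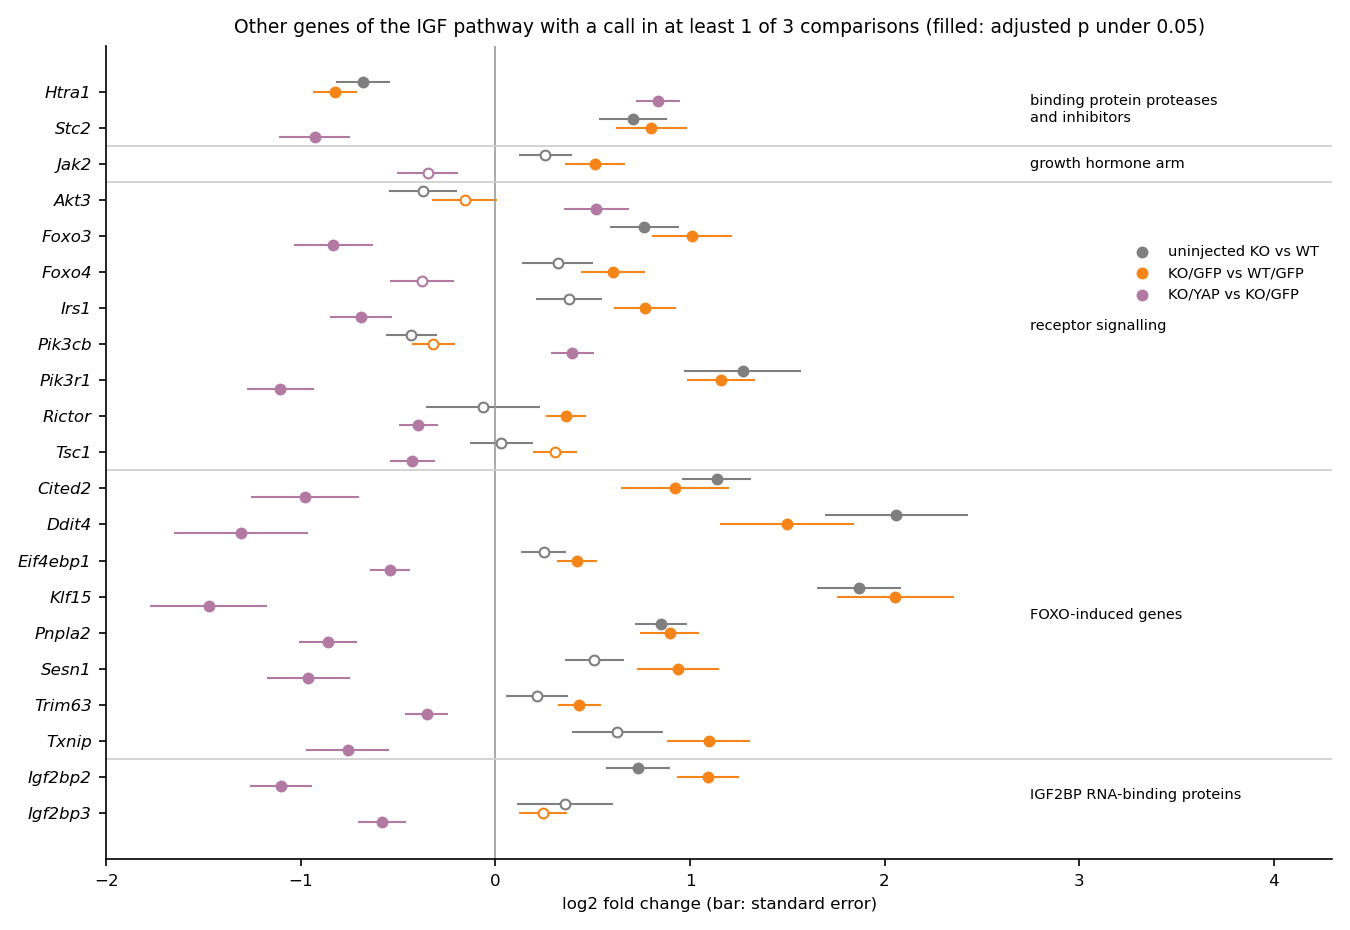
Log2 fold change (x axis, bars give the SE) of the 21 genes of the wider IGF lists that passed an adjusted p of 0.05 in at least 1 of 3 comparisons (colors; filled points passed). Klf15 lies at 1.87 and 2.06 in the KO comparisons without YAP and at -1.47 between KO/YAP and KO/GFP hearts.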

How the data were processed

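Poly(A) RNA from 24 mouse hearts (4 libraries per group) was sequenced by the authors, single-end for uninjected and paired-end for injected hearts. Per the labels and submitters' processing notes, reads were trimmed with cutadapt 2.3, checked with FastQC, aligned to GRCm38 with HISAT2 2.1.0, assembled with StringTie 1.3.4 and normalized with edgeR 3.26.1. Per the study, gene counts were derived from the StringTie assemblies, so reads given here are such derived counts. The deposited signal values are CPM on scaled library sizes, so that column sums differ between libraries, in 1 table for uninjected and 1 for injected hearts. The tables were normalized separately and no test was made across them.

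Gene identifiers were matched to GENCODE M21 (15655 of 15667 and 15314 of 15327 matched). Exon length per kilobase came from the same annotation. Genes above 1 CPM in at least 50% of a table's libraries were tested with limma 3.58.1 (trend) on log2(CPM + 1), so fold changes of low genes are understated. The uninjected table was fitted alone, and the 16 injected libraries in 1 model with 4 group means. Each model shares 1 spread per gene among its groups. Intervals and p-values are therefore less exact for genes whose groups differ in spread, Igfbp3 among them. P-values were adjusted by Benjamini-Hochberg over all genes tested, with a threshold of 0.05. Low values were whole multiples of 1 read, within 0.05 reads for at least 99.9% of values, and edgeR 4.0.16 (quasi-likelihood) and DESeq2 1.42.0 were run on these recovered reads as alternatives, in R 4.3.3. The other alternatives were the pseudocount (0.1), filters (none, 5 CPM), quantile and median-ratio scaling, limma without trend, log2 Ddx3y as a sex-linked covariate, the replicate number as a block, fits of 2 groups, and each library left out.

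The members, gene lists, motifs and tests were chosen with earlier results of these data known. Up to 4 genes per wider list and comparison were named, those with the smallest adjusted p, besides Igf2, Igf2r and Insr, and the 3 genes most like each member by Pearson r. On simulated counts, limma recovered 182 of 200 changed genes (15 false calls among 15598 genes) for uninjected KO against WT hearts. For KO/GFP against WT/GFP hearts it recovered 184 of 200 (7 false calls among 14597 genes). The simulation gave all genes and groups the same spread and changed no gene of low level. These counts check the code and do not give the sensitivity in the real data, where spreads differ between groups. The labels do not say whether libraries of a group came from separate litters.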

Additional observations from a re-analysis of the deposited data

Results flagged for a closer look

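In 42 sets of 4 libraries (7 members in 6 groups), 3 held a library far from the others by Dixon's criterion. Chance flags about 1 in 20 groups, which is 2.1 of 42. Igf1r in KO uninjected replicate 1 was at 43.0 CPM, with the other KO uninjected libraries between 83.8 and 91.6 CPM. Igf1 in WT/GFP replicate 4 was at 62.2 CPM, with the others between 41.6 and 44.4 CPM. Igfbp4 in WT/YAP replicate 4 was at 79.1 CPM, with the others between 163.4 and 176.1 CPM.

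The effect of the YAP virus differed between KO and WT hearts, by the interaction term, for Igf1r (-0.50 on the log2 scale) and Igfbp3 (-1.95). Both lost the threshold in 13 of 16 fits that left out 1 library.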

How the results depend on the processing

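Of 1288 values of single members under the alternatives, 1172 kept their direction and side of the threshold, 66 lost the call, 13 gained it and 37 changed sign, none of the last called in either fit. The count of members called ranged over fits leaving out 1 library from 1 to 4 in uninjected hearts, 2 to 4 in KO/GFP against WT/GFP, 2 to 5 in KO/YAP against KO/GFP and 0 to 3 for the interaction. With only the compared groups fitted it was 1 in KO/GFP against WT/GFP and 1 in KO/YAP against KO/GFP, and in the other 3 injected pairs it stayed at 0 under every alternative; the interaction called 0 without trend, with the Ddx3y covariate or without both low-Igfbp4 WT libraries (added after seeing the data). The cause was not tested, except that fits of fewer libraries have fewer degrees of freedom.

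Replicate numbers were shared by groups, but deviations of same-numbered libraries did not go together (r from -0.17 to 0.14 over 24 injected pairs, 1 over 0.1, and from -0.19 to 0.10 over 4 uninjected pairs), so they were not treated as pairs. With the number as a replicate block, 2, 3, 2 and 1 members were called in uninjected KO against WT, KO/GFP against WT/GFP, KO/YAP against KO/GFP and the interaction, and 0 in the other comparisons. The calls lost were Igf1 in KO/GFP against WT/GFP (adjusted p = 0.0586, limma) and in KO/YAP against KO/GFP (0.0771), and Igfbp3 in the interaction (0.0565). All genes called went from 6.69% to 2.47% of genes tested in uninjected hearts and from 1104 to 707 for the interaction.

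Signs changed for small log2 values: Igf1r in uninjected hearts with quantile normalization (-0.0075); Igfbp7 between KO/YAP and WT/YAP with quantile normalization (-0.024) or the Ddx3y covariate (-0.054), and Igf1r there with the covariate (0.013). Without both low-Igfbp4 WT libraries they changed for Igfbp4 in KO/YAP against WT/GFP (-0.022), Igfbp7 in WT/YAP against WT/GFP (-0.14), and Igf1r (0.00079), Igfbp4 (-0.089) and Igfbp5 (0.0070) in KO/YAP against WT/YAP. Leaving out 1 library gave both signs for Igf1r in uninjected hearts (-0.059 to 0.30), Igfbp4 in KO/GFP against WT/GFP (-0.37 to 0.054), Igfbp6 in KO/YAP against KO/GFP (-0.073 to 0.23), Igf1 (-0.096 to 0.093) and Igfbp4 (-0.022 to 0.40) in KO/YAP against WT/GFP, and Igfbp4 (-0.21 to 0.37) and Igfbp7 (-0.079 to 0.13) in WT/YAP against WT/GFP. It also did for Igf1r (-0.050 to 0.022), Igfbp4 (-0.089 to 0.29), Igfbp5 (-0.13 to 0.047) and Igfbp7 (-0.041 to 0.14) in KO/YAP against WT/YAP and Igfbp4 in the interaction (-0.015 to 0.56).

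All genes called in uninjected hearts were 692 with a filter of 5 CPM, 1955 with DESeq2, 1927 with the Ddx3y covariate and 316 to 2031 without 1 library. KO/GFP against WT/GFP gave 1993, but 962 in the fit of 2 groups, 1277 without both WT libraries and 1258 to 2749 without 1 library. KO/YAP against KO/GFP gave 2156, but 1282 in the fit of 2 groups. The 3 genes of KO/YAP against WT/GFP became 24 with DESeq2, 0 without both WT libraries and 0 to 4 without 1, the 0 of WT/YAP against WT/GFP became 11 with DESeq2 and 0 to 1, and the 6 of KO/YAP against WT/YAP became 71 with DESeq2, 15 in the fit of 2 groups, 0 without both WT libraries and 0 to 16. The interaction's 1104 became 400 without both and 625 to 1467 without 1. Igfbp6 had the fewest reads of the members, 20 to 101 per library.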
